A study of Mus musculus with 10 samples.

Results

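A set of 10 imprinted genes was followed through the lumbar spinal cord of mouse embryos: the noncoding RNAs H19 and Meg3, the ligands Igf2 and Dlk1, the receptor Igf2r, the signalling adaptor Grb10, the transcription factors Plagl1 and Peg3, and the genes Mest and Ndn. The genes were picked by name as genes of growth control and noncoding RNA, and each matched 1 of the 54146 gene rows of the count table, so that all 10 could be described, and all 10 passed the filter on low counts in every comparison. The series held 10 embryos at E12.5, with 5 controls and 5 Dot1l-cKO embryos from 2 litters, and each embryo gave 1 RNA sequencing library. Dot1l encodes the methyltransferase for histone H3 lysine 79, and the study asked what its loss changes in the developing spinal cord. The background of all embryos was B6.Cg-E2f1Tg(Wnt1-cre)2Sor/J. The Dot1l-cKO embryos carried Wnt1cre2/+ and Dot1l fl/fl in both litters, while no control carried the cre. Effects of the cre transgene itself and of the loss of Dot1l can therefore not be told apart. In litter 1 the 3 controls were Dot1l fl/fl, as were the 3 Dot1l-cKO embryos, and in litter 2 the 2 controls were Dot1l fl/+ beside 2 Dot1l-cKO embryos, so that litter and the number of floxed alleles cannot be told apart among the controls. Wnt1-driven cre acts in the dorsal neural tube and in neural crest, so that only some cells of the tissue are recombined.

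Imprinted genes are expressed mainly from the maternal or the paternal copy, according to DNA methylation set in the germ line. Many of them control growth before birth: paternally expressed Igf2 promotes it, and Igf2r and Grb10, maternally expressed in many but not all tissues, restrain it. Igf2r clears the IGF2 protein, and Grb10 binds activated insulin and IGF receptors. H19 lies next to Igf2 and Meg3 next to Dlk1, and in each pair the RNA is made from the maternal copy and the protein gene from the paternal one. Counts of total RNA per gene, as used here, do not tell the parental copies apart.

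The libraries held 40949585 to 68928443 counted fragments. Levels are given as CPM, the count of a gene scaled to the library total corrected by edgeR's TMM factor. Whole-gene Dot1l RNA was 87.6 to 107 CPM in the controls and 97.8 to 112 CPM in the Dot1l-cKO embryos, so that it did not fall, and the groups below are those of the labels. The tissue was a mixture, with neuronal markers summing to 7042 to 7912 CPM in every embryo. Both Dot1l-cKO embryos of litter 2 had Y-linked RNA at 156 and 172 CPM and Xist at 6.00 and 6.79 CPM, whereas the other 8 embryos had Xist at 499 to 890 CPM. Genotype and sex can therefore not be told apart in litter 2. In bulk tissue, fewer cells of a type and less RNA per cell cannot be told apart either.

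Of the 10 genes, 4 carry microRNA hairpins, which are shown because they are part of what the host loci encode, with the seed (bases 2 to 8) in capitals. Coordinates and sequences are those of RefSeq on GRCm38.p6, and each hairpin lies within its host gene on the same strand. H19 (chr7:142575529-142578143, minus strand) holds mir-675, Igf2 (chr7:142650766-142666816, minus strand) mir-483, Mest (chr6:30723547-30748465, plus strand) mir-335 and Meg3 (chr12:109541001-109571726, plus strand) mir-770.
mmu-miR-675-5p, chr7:142577112-142577133, minus strand: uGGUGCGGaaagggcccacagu
mmu-miR-675-3p, chr7:142577078-142577099, minus strand: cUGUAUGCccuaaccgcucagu
mmu-miR-483-5p, chr7:142654968-142654989, minus strand: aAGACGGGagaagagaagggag
mmu-miR-483-3p, chr7:142654932-142654952, minus strand: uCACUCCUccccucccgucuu
mmu-miR-335-5p, chr6:30741314-30741336, plus strand: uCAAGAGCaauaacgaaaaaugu
mmu-miR-335-3p, chr6:30741354-30741375, plus strand: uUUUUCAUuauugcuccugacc
mmu-miR-770-5p, chr12:109563710-109563731, plus strand: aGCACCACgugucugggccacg
mmu-miR-770-3p, chr12:109563744-109563765, plus strand: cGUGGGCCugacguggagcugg
The 8 mature sequences had 8 different seeds. The libraries were made for longer RNA, and the hairpins' own rows held next to nothing: 0 counts in every embryo for Mir675 and Mir770, 0 to 11 for Mir483 and 0 to 7 for Mir335. What follows concerns the host transcripts only.

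The levels of the genes differed widely. Per kilobase of exon, H19 averaged 355 CPM per kb over the 10 embryos. Ndn followed with 75.9, Mest with 62.8, Grb10 with 56.6 and Meg3 with 39.98 CPM per kb, and then Peg3 with 24.1, Plagl1 with 21.6, Igf2r with 17.8 and Dlk1 with 12.4. Igf2 was lowest with 7.15 CPM per kb, but the predicted gene Gm49394 covers 62.8% of its exon bases on the same strand and had 0 counts in every embryo, and how the counting treated reads shared by both genes was not tested, so that this level and its rank are uncertain. H19 ranged from 308 to 404 CPM per kb and overlapped with no other gene, and Igf2, at 4.05 to 13.05, overlapped with Dlk1, at 10.0 to 16.4. The ranges of Ndn (61.6 to 86.6), Mest (50.9 to 71.0), Grb10 (33.8 to 79.0) and Meg3 (19.7 to 56.9) overlapped with their neighbours in this order, and so did those of Peg3 (21.7 to 27.4), Plagl1 (13.2 to 32.8), Igf2r (13.5 to 20.9) and Dlk1. The order of the means turned with litter. In litter 1 Meg3 (50.9) was above Grb10 (46.5). In litter 2 Meg3 (23.6) was below Plagl1 (27.8) and Peg3 (25.0), and Grb10 (71.8) was above Mest (67.3). The coefficient of variation over embryos was largest for Igf2 (38.9%) and Meg3 (36.1%) and smallest for Peg3 (6.90%).

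**Figure D1:**
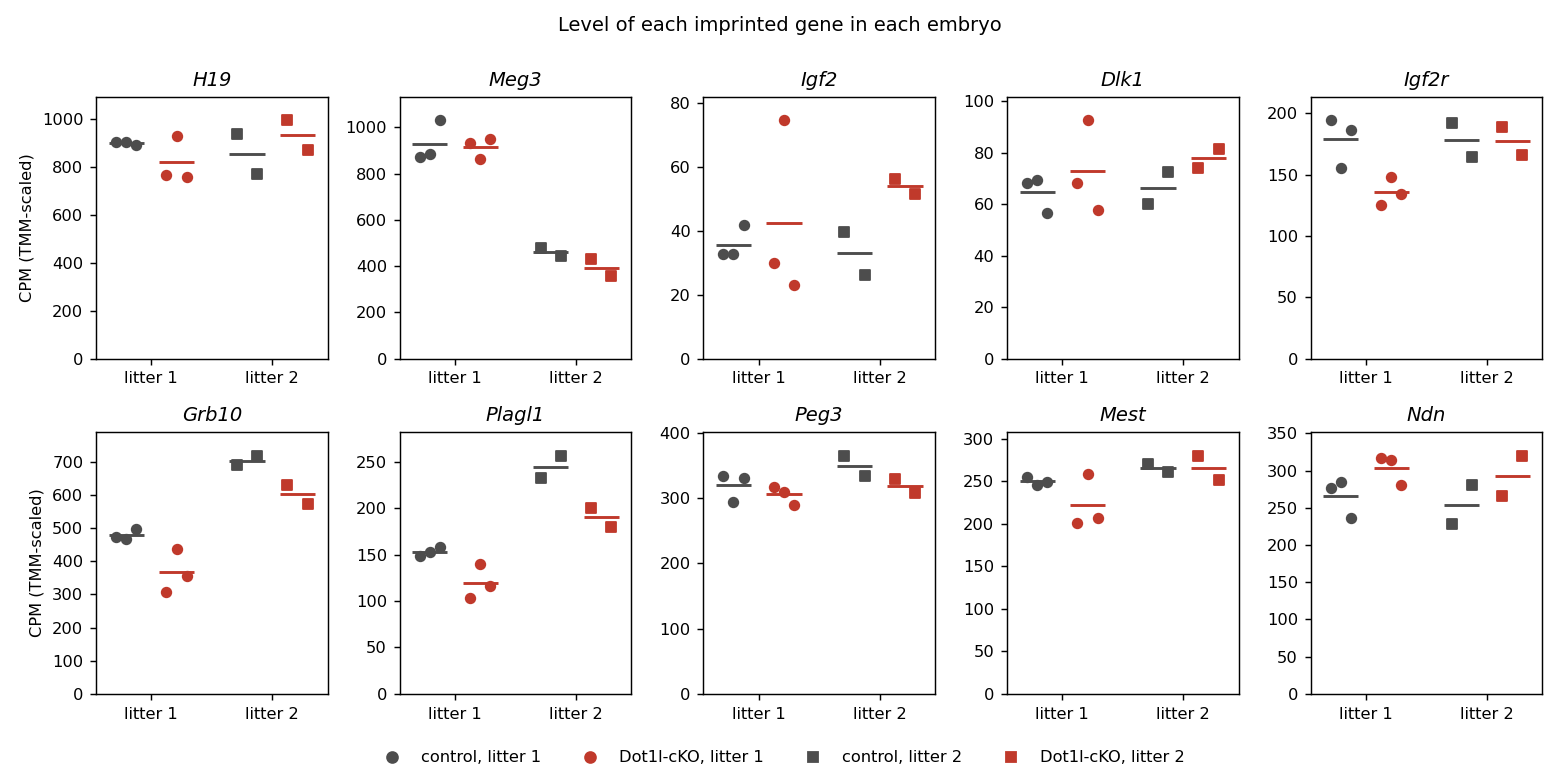
Level of each gene in CPM (TMM-scaled) in each of the 10 embryos, with 1 panel per gene and axes that start at 0. Points are embryos, with circles for litter 1 and squares for litter 2, grey for control and red for Dot1l-cKO, and horizontal bars are means. Meg3 is lower in all 4 embryos of litter 2, and Grb10 and Plagl1 are higher there.

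In the comparison of Dot1l-cKO with control embryos over both litters, with the litter as a term, 2 of the 10 genes passed an adjusted p of 0.05, and both were lower in the Dot1l-cKO: Plagl1 and Grb10. Of all 19773 genes tested, 591 passed, which is 2.99%. An unadjusted p under 0.05 was reached by 4 of the 10 and by 21.7% of all genes. The median log2 fold change was -0.10 over the 10 genes and -0.01 over all genes, with 7 of the 10 below 0. Between litter 2 and litter 1, 3 of the 10 passed, Meg3 lower and Grb10 and Plagl1 higher, where 34.7% of all genes passed. Adjusted p-values of these fits come from the quasi-likelihood F test of edgeR, corrected by Benjamini-Hochberg over all genes tested, they measure the spread between embryos, and each SE is that of the log2 fold change.

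Plagl1 encodes a zinc finger transcription factor that holds back proliferation and regulates other imprinted genes. It had 148, 153 and 158 CPM in the controls of litter 1 and 104, 139 and 116 CPM in the Dot1l-cKO embryos of that litter. In litter 2 the controls had 233 and 256 CPM and the Dot1l-cKO embryos 200 and 180 CPM. Within each litter every control was above every Dot1l-cKO embryo, and every embryo of litter 2 was above every embryo of litter 1. Among other imprinted genes tested in litter 2, 15 of 51 were higher and 14 lower in the Dot1l-cKO without overlap. In litter 1 these were 10 and 6 of 54. Between litters, 5 and 14 of 54 were higher and lower in litter 2 without overlap. The share over all genes was not counted. In the Dot1l-cKO Plagl1 was lower by a log2 fold change of -0.36 (SE 0.07, adjusted p = 0.0232, n = 5 and 5, edgeR). The size was the same in the litters taken singly, with -0.35 (SE 0.10) in litter 1 and -0.36 (SE 0.07) in litter 2. In litter 2 it was higher than in litter 1 by 0.67 (SE 0.07, adjusted p = 7.19e-06), or 1.59-fold.

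Grb10 showed a similar course. Among embryos of litter 1, the controls had 473, 468 and 497 CPM, and the Dot1l-cKO embryos had 307, 437 and 357 CPM. In litter 2 these values were 689 and 718 CPM for controls and 630 and 573 CPM for Dot1l-cKO embryos. Controls again lay above all Dot1l-cKO embryos of their own litter. The log2 fold change in the Dot1l-cKO was -0.32 (SE 0.08, adjusted p = 0.0446, edgeR), with -0.38 (SE 0.11) in litter 1 and -0.22 (SE 0.07) in litter 2. Litter 2 was higher by 0.63 (SE 0.08, adjusted p = 3.18e-05), or 1.55-fold, again with no overlap between the litters.

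The genotype calls of Plagl1 and Grb10 lay close to the threshold. When each embryo was left out in turn, Plagl1 passed in 4 of 10 fits (adjusted p = 0.00388 to 0.0903) and Grb10 in 2 of 10 (adjusted p = 0.0233 to 0.125), with negative log2 fold changes in each fit. Without the litter term neither passed (adjusted p = 0.603 for Plagl1 and 0.65 for Grb10), and neither passed with the level of Xist as a covariate (adjusted p = 0.141 for both). Xist was low only in the Dot1l-cKO embryos of litter 2. The covariate nearly marks them, so that the genotype effect then rests mostly on litter 1. The difference between litters passed for Plagl1 and Grb10 in each fit.

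Markers of skeletal muscle were examined in the same groups. All 7 had negative log2 fold changes over both litters (median -1.27), of which 0 passed by edgeR and 1 had an unadjusted p under 0.05. Without Mut_181-3, 5 of the 7 were called lower, and 7 without the filter on low counts, where 2.66% and 6.25% of all genes passed. In litter 2 they summed to 111 and 113 CPM in the controls and to 28.9 and 31.6 CPM in the Dot1l-cKO embryos, with 6 of 7 called lower, where 5.13% of all genes passed. In litter 1 they summed to 113, 63.1 and 6.20 CPM in the controls and 9.87, 86.0 and 6.68 CPM in the Dot1l-cKO embryos, which overlapped. Over the 4 embryos of litter 2, r with the summed muscle markers was 0.918 for Plagl1 and 0.887 for Grb10, and over the 6 of litter 1 it was 0.454 and 0.466. Other marker lists also differed in litter 2. Of the sensory neuron markers 5 of 7 were called higher in the Dot1l-cKO there, of the erythroid markers 3 of 6 and of the neural crest glia markers 3 of 6. Sensory neuron markers summed to 204 and 211 CPM in its controls and 269 and 316 CPM in its Dot1l-cKO embryos, erythroid markers to 1252 and 1344 CPM against 1534 and 1897 CPM, and neural crest glia markers to 682 and 713 CPM against 689 CPM in both, which overlapped. With the summed sensory neuron markers r was -0.951 for Plagl1 and -0.971 for Grb10 in litter 2 and 0.551 and 0.519 in litter 1, and with the erythroid markers it was -0.894 and -0.943 in litter 2 and 0.258 and 0.261 in litter 1. Cartilage markers (2 of 4 called higher in litter 2) gave -0.838 for Plagl1 and -0.840 for Grb10 in litter 2 and 0.605 and 0.581 in litter 1. Mesenchymal markers (3 of 10 called higher) gave -0.776 and -0.679 in litter 2 and 0.740 and 0.745 in litter 1. Endothelial markers gave -0.247 and -0.104 in litter 2 and 0.817 and 0.820 in litter 1. The part of these lists in the Plagl1 and Grb10 values was not tested.

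The promoter windows of Plagl1 and Grb10 are shown since these genes moved together, each from 250 bases before to 50 bases after the annotated start, 5′ to 3′, with CpG in capitals. Plagl1 spans chr10:13060504-13131694 on the plus strand, its window lies inside that span, and Grb10 chr11:11930508-12038683 on the minus strand, and the window shown for Grb10 is that of the first of the 2 starts listed by RefSeq.
Plagl1 promoter window, chr10:13090582-13090881, plus strand: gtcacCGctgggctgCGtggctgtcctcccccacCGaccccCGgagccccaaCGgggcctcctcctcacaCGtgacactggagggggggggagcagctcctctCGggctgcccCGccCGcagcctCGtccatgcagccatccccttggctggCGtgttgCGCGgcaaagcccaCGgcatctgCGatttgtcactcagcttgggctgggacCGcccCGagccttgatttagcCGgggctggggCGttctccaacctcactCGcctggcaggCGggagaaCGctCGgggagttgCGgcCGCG
Grb10 promoter window, chr11:12037371-12037670, minus strand: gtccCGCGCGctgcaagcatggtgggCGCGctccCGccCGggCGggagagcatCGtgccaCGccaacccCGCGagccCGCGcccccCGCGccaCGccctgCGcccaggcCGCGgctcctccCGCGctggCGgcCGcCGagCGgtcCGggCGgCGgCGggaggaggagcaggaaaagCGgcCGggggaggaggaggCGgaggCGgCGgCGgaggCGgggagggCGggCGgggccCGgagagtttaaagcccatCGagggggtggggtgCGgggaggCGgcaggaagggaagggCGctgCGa
The Plagl1 window held 26 CpG at 70.7% GC and the Grb10 window 45 CpG at 80.0% GC, against medians of 7 CpG and 52.7% GC over 32851 windows of the same length. The other Grb10 window, chr11:12027922-12028221, held 9 CpG. The octamer GGGGCCCC, known as a sequence bound by PLAGL1 and identical on both strands, was searched in all windows and was found in 1.08% of them. Among 16 windows of 9 of the genes it occurred in 1, that of Peg3 (chr7:6730370-6730669). These letters were absent from the windows of Plagl1 and Grb10.

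**Figure D2:**
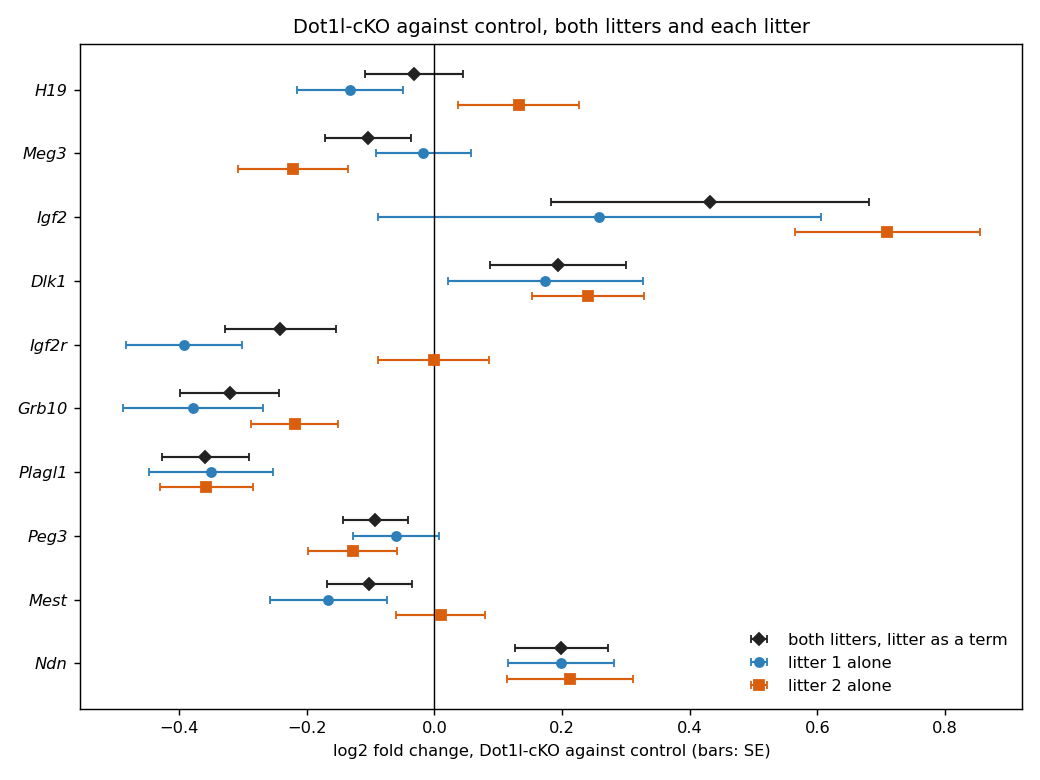
Log2 fold change of each gene in Dot1l-cKO against control embryos, with SE as bars, from the fit over both litters with the litter as a term (black), litter 1 alone (blue) and litter 2 alone (orange). Plagl1 lies near -0.35 in all 3 fits, whereas Igf2r is -0.39 in litter 1 and near 0 in litter 2.

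Igf2r, the receptor that carries IGF2 to lysosomes, spans chr17:12682406-12769664 on the minus strand. It had 194, 156 and 187 CPM in the controls of litter 1 and 125, 148 and 134 CPM in the Dot1l-cKO embryos, which did not overlap. In litter 2 the controls had 192 and 164 CPM and the Dot1l-cKO embryos 189 and 166 CPM, which lay within the range of the controls. The log2 fold change was -0.24 (SE 0.09, adjusted p = 0.131, edgeR) over both litters, -0.39 (SE 0.09, adjusted p = 0.12) in litter 1 and -0.0013 (SE 0.09) in litter 2. The difference between the litters in this effect was 0.39 (SE 0.15), with an unadjusted p of 0.0189 and an adjusted p of 0.541 (edgeR). Airn, the antisense noncoding RNA that silences the paternal Igf2r copy in many tissues, stood at 1.42 to 2.97 CPM and had a log2 fold change of -0.20 (SE 0.19, adjusted p = 0.579). It overlaps 28354 bases of Igf2r on the opposite strand, none of them in shared exons, and without strand its reads cannot be told apart from those of Igf2r introns. In litter 1 the markers of endothelium summed to 324 to 377 CPM in the controls and 261 to 294 CPM in the Dot1l-cKO embryos, and in litter 2 to 271 and 218 CPM in the controls and 293 and 232 CPM in the Dot1l-cKO embryos. Over both litters, 6 of the 7 endothelial markers had negative fold changes and 0 passed by edgeR (4 at an unadjusted p under 0.05). In litter 1 alone, 6 of the 7 were lower without overlap, with a median log2 fold change of -0.39. There 0 passed by edgeR and 6 had an unadjusted p under 0.05, as did 14.1% of all genes. Their part in the Igf2r values was not tested.

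Igf2, the paternally expressed insulin-like growth factor, was the most variable of the genes. The controls had 32.8, 32.7 and 41.8 CPM in litter 1 and 39.8 and 26.1 CPM in litter 2. The Dot1l-cKO embryos had 30.1, 74.7 and 23.2 CPM in litter 1 and 56.2 and 51.7 CPM in litter 2. In litter 1 the Dot1l-cKO embryos were both the highest and the lowest, and in litter 2 both lay above both controls. Over both litters the log2 fold change was 0.43 (SE 0.25, adjusted p = 0.34, edgeR). In litter 2 alone Igf2 was higher in the Dot1l-cKO by 0.71 (SE 0.14, adjusted p = 0.0151, edgeR), or 1.64-fold, and in litter 1 alone the value was 0.26 (SE 0.35, adjusted p = 0.795). DESeq2 did not call it in litter 2 (adjusted p = 0.148). In the same comparison the cartilage markers summed to 185 and 205 CPM in the controls and 256 and 259 CPM in the Dot1l-cKO embryos, with 2 of 4 called higher, where 5.13% of all genes passed. Mesenchymal markers summed to 1427 and 1235 CPM in the controls and 1729 and 1525 CPM in the Dot1l-cKO embryos, with 3 of 10 called higher against the same share. Within litters Igf2 had r = 0.783 with cartilage markers (rho = 0.661, exact permutation p = 0.0134, adjusted p = 0.211) and 0.607 with mesenchymal markers (rho = 0.685, exact permutation p = 0.0912, adjusted p = 0.38), with 0.819 and 0.501 in litter 1 and 0.749 and 0.682 without the 2 embryos farthest in Igf2. Of the other lists, neural crest glia gave -0.773, motor neuron 0.641 and microglia markers 0.625. Their adjusted p was 0.211, 0.324 and 0.211 (exact permutation test), and the remaining lists had r of smaller size. In litter 2 the sensory neuron (5 of 7), erythroid (3 of 6) and neural crest glia markers (3 of 6) were also called higher, and r of Igf2 over its 4 embryos was 0.961 with mesenchymal, 0.930 with microglia, 0.753 with sensory neuron, 0.699 with cartilage, 0.619 with erythroid, -0.772 with neural crest glia and -0.871 with skeletal muscle markers. The part of these markers in the Igf2 values was not tested. The difference between litters did not pass (0.46, SE 0.50, adjusted p = 0.823, edgeR). Without Mut_181-3, the Dot1l-cKO embryo with 74.7 CPM, the value of litter 1 was -0.43 (adjusted p = 0.119) and the difference between litters 1.14 (adjusted p = 0.0547). The Igf2 counts are those left by the counting beside Gm49394.

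Dlk1, a transmembrane protein related to the Notch ligands, spans chr12:109452823-109463336 on the plus strand. The controls had 68.4, 69.5 and 56.6 CPM in litter 1 and 59.9 and 72.6 CPM in litter 2, and the Dot1l-cKO embryos had 68.4, 92.6 and 57.7 CPM in litter 1 and 74.2 and 81.4 CPM in litter 2. The highest value was again that of the embryo Mut_181-3, and the groups overlapped in litter 1 but not in litter 2. The log2 fold change was 0.19 (SE 0.11, adjusted p = 0.315, edgeR) for genotype and 0.06 (SE 0.11, adjusted p = 0.695) for litter.

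H19, a spliced noncoding RNA of embryonic tissues, was the most abundant per kilobase. In litter 1 the controls had 904, 902 and 893 CPM and the Dot1l-cKO embryos 766, 931 and 758 CPM. In litter 2 the controls had 937 and 771 CPM and the Dot1l-cKO embryos 994 and 870 CPM. The 3 controls of litter 1 lay close together (coefficient of variation 0.667%), while the other groups were wider and overlapped with them. H19 did not pass for genotype (log2 fold change -0.03, SE 0.08, adjusted p = 0.848, edgeR) or for litter (0.06, SE 0.08, adjusted p = 0.613).

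Meg3, the maternally expressed noncoding RNA of the Dlk1 domain, showed the largest difference between litters of the 10 genes. It had 870, 884 and 1030 CPM in the controls and 930, 862 and 949 CPM in the Dot1l-cKO embryos of litter 1, but 478 and 443 CPM and 430 and 357 CPM in those of litter 2. Every embryo of litter 2 was below every embryo of litter 1, by a log2 fold change of -1.11 (SE 0.07, adjusted p = 5.46e-07, edgeR), or 0.462-fold. Among the 5 controls alone the value was -1.01 (adjusted p = 1.36e-05, edgeR). For genotype Meg3 did not pass (-0.10, SE 0.07, adjusted p = 0.402), with the groups overlapping in litter 1 and not in litter 2.

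Other genes of the Dlk1 and Meg3 domain on chromosome 12 moved less than Meg3. Rian, a noncoding RNA downstream of Meg3, was at 714 to 830 CPM in litter 1 and 556 to 642 CPM in litter 2, which did not overlap, a log2 fold change of -0.37 (SE 0.06, adjusted p = 0.000229, edgeR). Mirg, the noncoding RNA beyond it, gave -0.33 (SE 0.09, adjusted p = 0.00993), the retrotransposon-derived Rtl1 -0.66 (SE 0.15, adjusted p = 0.00417) and Begain, at the other end, -0.46 (SE 0.07, adjusted p = 0.00027). The deiodinase gene Dio3 was 0.36 (SE 0.17, adjusted p = 0.117) and Dlk1 itself 0.06. Thus 5 of 7 genes of the domain were lower in litter 2, where 34.7% of all genes passed, and Dlk1 and Dio3 did not pass.

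**Figure D3:**
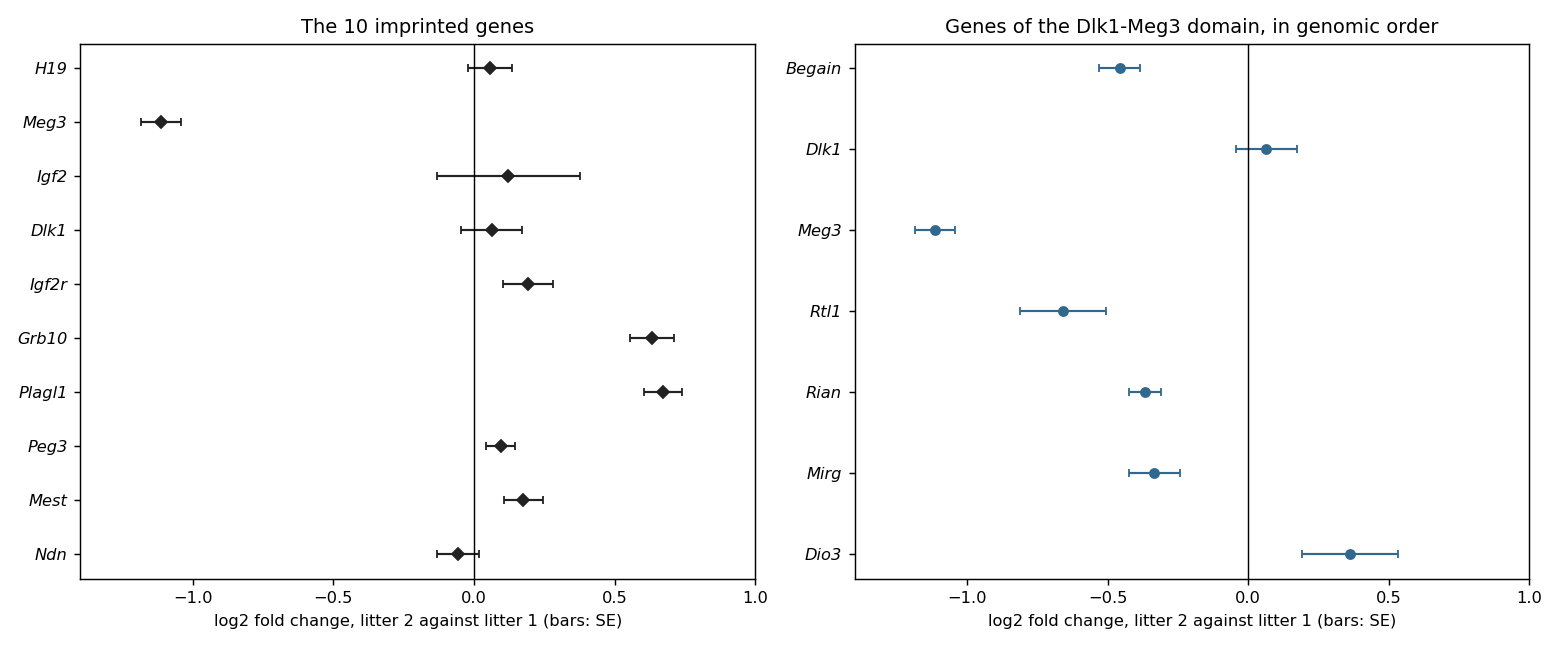
Log2 fold change of litter 2 against litter 1, with SE as bars, for the 10 imprinted genes (left) and for genes of the Dlk1 and Meg3 domain in the order of the chromosome (right). Meg3 lies at -1.11, below all others shown, while Grb10 (0.63) and Plagl1 (0.67) are the only genes on the left above 0.5.

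The litters also differed in markers of cell types. Markers of neural progenitors summed to 1840 to 2375 CPM in litter 1 and 2943 to 3129 CPM in litter 2, and all 8 were called higher in litter 2. Sensory neuron markers summed to 436 to 674 CPM in litter 1 and 204 to 316 CPM in litter 2, with 6 of 7 called lower, neural crest glia markers had 4 of 6 called lower, and erythroid markers had 5 of 6 called higher, where 34.7% of all genes passed. These lists moved with the litter as Meg3, Grb10 and Plagl1 did, and their part in those differences was not tested.

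Peg3, a zinc finger protein expressed from the paternal copy (chr7:6703892-6730431, minus strand), was the steadiest over all embryos of both litters. Within litter 2 its coefficient of variation was 7.04%, against 4.50% for Mest. Peg3 had 333, 294 and 331 CPM in the controls and 317, 310 and 290 CPM in the Dot1l-cKO embryos of litter 1, while litter 2 had 365 and 334 CPM in controls and 329 and 308 CPM in Dot1l-cKO embryos. The groups overlapped in litter 1 and did not in litter 2. The log2 fold change was -0.09 for genotype (SE 0.05, adjusted p = 0.313, edgeR) and 0.09 for litter (SE 0.05, adjusted p = 0.179).

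Mest, related in sequence to hydrolases, had 255, 245 and 249 CPM in the controls and 201, 258 and 206 CPM in the Dot1l-cKO embryos of litter 1, while litter 2 had 270 and 261 CPM in controls, with 280 and 252 CPM in Dot1l-cKO embryos. The groups overlapped in both litters. It did not pass for genotype (-0.10, SE 0.07, adjusted p = 0.408, edgeR) or litter (0.18, SE 0.07, adjusted p = 0.0612). Exons of Copg2 on the opposite strand overlap 23.1% of its exon bases, and whether the counting used strand is not given in the sources used here.

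Ndn encodes necdin, a MAGE family protein of postmitotic neurons, and lies at chr7:62346569-62350262 on the plus strand. It had 276, 284 and 236 CPM in the controls and 317, 314 and 281 CPM in the Dot1l-cKO embryos of litter 1, while controls of litter 2 had 228 and 281 CPM, and Dot1l-cKO embryos 266 and 320 CPM. The Dot1l-cKO mean was above the control mean in both litters, with overlap in each. The log2 fold change was 0.20 (SE 0.07, adjusted p = 0.136, edgeR), and for litter it was -0.06 (SE 0.07, adjusted p = 0.593).

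Taken by litter, genotype calls were fewer or rested on fewer embryos. In litter 1 (3 against 3), 0 of the 10 genes passed by edgeR, where 0.0623% of all genes passed, and 4 had an unadjusted p under 0.05, as did 14.1% of all genes. DESeq2 called 3.28% of the genes it gave an adjusted p there, among them 3 of the 10, Igf2r, Grb10 and Plagl1. In litter 2 (2 against 2), 2 of the 10 passed, Igf2 higher and Plagl1 lower, where 5.13% of all genes passed. For the difference of the effect between litters 0 of the 10 passed by edgeR or DESeq2, where 0.00978% of all genes passed by edgeR. Of the 10, Igf2r had an unadjusted p under 0.05, as did 8.05% of all genes.

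Of 59 further imprinted genes in the table, 54 could be tested. For genotype 7 were higher and 1 lower, where 2.99% of all genes passed, and the median log2 fold change was 0.01. Rasgrf1, a Ras exchange factor, had 0.127 to 1.31 CPM in the controls and 0.671 to 5.48 CPM in the Dot1l-cKO, ranges that overlapped, and rose by 1.66 (SE 0.26, adjusted p = 0.0083, edgeR). Neuronatin, Nnat, had 768 to 878 CPM in the controls and 927 to 1070 CPM in the Dot1l-cKO embryos, without overlap, and rose by 0.32 (SE 0.05, adjusted p = 0.00586). Gnas rose by 0.50, Nap1l5 by 0.37, Begain by 0.31 and Magel2, a neighbour of Ndn from the same gene family, by 0.30. The part of the cre transgene in these changes cannot be told apart from that of Dot1l loss. Without 1 embryo, Rasgrf1 and Nnat passed in each of the 10 fits, Nap1l5 in 3, and Gnas, Begain and Magel2 in 2 each. The count of 8 was 8 without Mut_181-7 or Mut_190-4, where 7.01% and 1.91% of all genes passed. It was 5 without Mut_181-3 (2.66% of all genes) and 2 to 4 without any 1 of the other 7 embryos (0.26% to 1.45%). The 1 that fell was Kcnq1ot1, the noncoding RNA that silences the Cdkn1c domain next to H19 and Igf2.

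Kcnq1ot1 had 30.2, 22.3 and 28.6 CPM in the controls and 10.6, 13.5 and 12.1 CPM in the Dot1l-cKO embryos of litter 1. In litter 2 it had 28.6 and 20.9 CPM in controls, with 21.1 and 13.8 CPM in Dot1l-cKO embryos. The groups did not overlap in litter 1 and overlapped in litter 2. The log2 fold change was -0.90 (SE 0.15, adjusted p = 0.0163, edgeR), which is larger in size than that of any of the 10 genes. It did not pass without Ctr_181-4 (adjusted p = 0.0526, edgeR), Ctr_190-5 (0.0505) or Mut_190-6 (0.0569). Cdkn1c, which it silences, had 0.16 (SE 0.12, adjusted p = 0.46). For litter, 7 of the 54 were higher and 24 lower, where 34.7% of all genes passed, with a median of -0.17 against -0.02 over all genes. The largest were Calcr (-3.27), Rasgrf1 (-2.37), Ascl2 (-1.65) and Th (-1.57) among the lower ones and Peg12 (0.89), Cdkn1c (0.54) and Slc38a4 (0.50) among the higher ones. Without 1 embryo Ascl2 passed in 4 of 10 fits. It did not pass without Ctr_190-5, Mut_190-4 or Mut_190-6 (adjusted p = 0.0959 to 0.132, edgeR) and was removed by the filter on low counts in the other 3. The other 6 passed without any 1 embryo.

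Of 20 genes tested around IGF signalling, 0 were higher and 2 lower in the Dot1l-cKO, both of them mRNA-binding proteins named for binding Igf2 mRNA, where 2.99% of all genes passed. Igf2bp1 had 59.1, 64.4 and 75.6 CPM in the controls and 29.1, 51.0 and 43.8 CPM in the Dot1l-cKO embryos of litter 1, while litter 2 had 139 and 145 CPM in controls, with 115 and 96.6 CPM in Dot1l-cKO embryos. All controls lay above the Dot1l-cKO embryos of their litter. It fell by 0.58 (SE 0.12, adjusted p = 0.0318, edgeR) and Igf2bp2 by 0.25 (SE 0.06, adjusted p = 0.0411). Without 1 embryo Igf2bp1 passed in 4 of 10 fits, not in those without any 1 control or without Mut_190-6, and Igf2bp2 passed in 2, those without Mut_181-3 or Mut_181-7. The receptor Igf1r gave -0.17 (SE 0.05, adjusted p = 0.0868) and the ligand Igf1 -0.01 (SE 0.08, adjusted p = 0.957). Between litters 4 of the 20 were higher, Igf2bp1 (1.23), Igf2bp3 (0.69), Igf2bp2 (0.54) and Irs1 (0.35), and 7 lower, led by the receptor gene Insrr (-1.83), where 34.7% of all genes passed. The median over the 20 genes was -0.03 for genotype and 0.06 for litter.

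Whether the genes rose and fell together was asked over the 10 embryos after the mean of each litter was removed from log2 CPM. Of 45 pairs, 29 had a positive and 16 a negative Pearson r, with a median of 0.25. The pairs share genes and embryos and are not independent. With all other tested genes, the median r of each of the 10 genes was -0.045 to 0.019. The median size of r was 0.30 to 0.39. Permutation of the embryos within litters gave 12 pairs with an unadjusted p under 0.05. Of all other tested genes, 6.12% (with Peg3) to 18.7% (with Grb10) reached the same with each of the 10 genes. After adjustment over all 19772 other tested genes, 1 pair passed, Grb10 and Plagl1.

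Grb10 and Plagl1 had r = 0.968 (exact permutation p = 0.000116, adjusted p = 0.026, two-sided, 17280 arrangements) and rho = 0.903 (exact permutation p = 0.000174, adjusted p = 0.052). In litter 1 (6 embryos) r was 0.996, in litter 2 (4 embryos) 0.989, and without the 2 embryos farthest from the median of Grb10, the Dot1l-cKO embryos Mut_181-2 and Mut_181-7, it was 0.972. With the mean of each group within litter removed as well, so that the genotype difference does not enter, r was 0.974. At the same threshold 439 genes, 2.22% of all, were correlated with Grb10 in either direction, and 485, 2.45%, with Plagl1. No gene passed with any of the other 8.

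**Figure D4:**
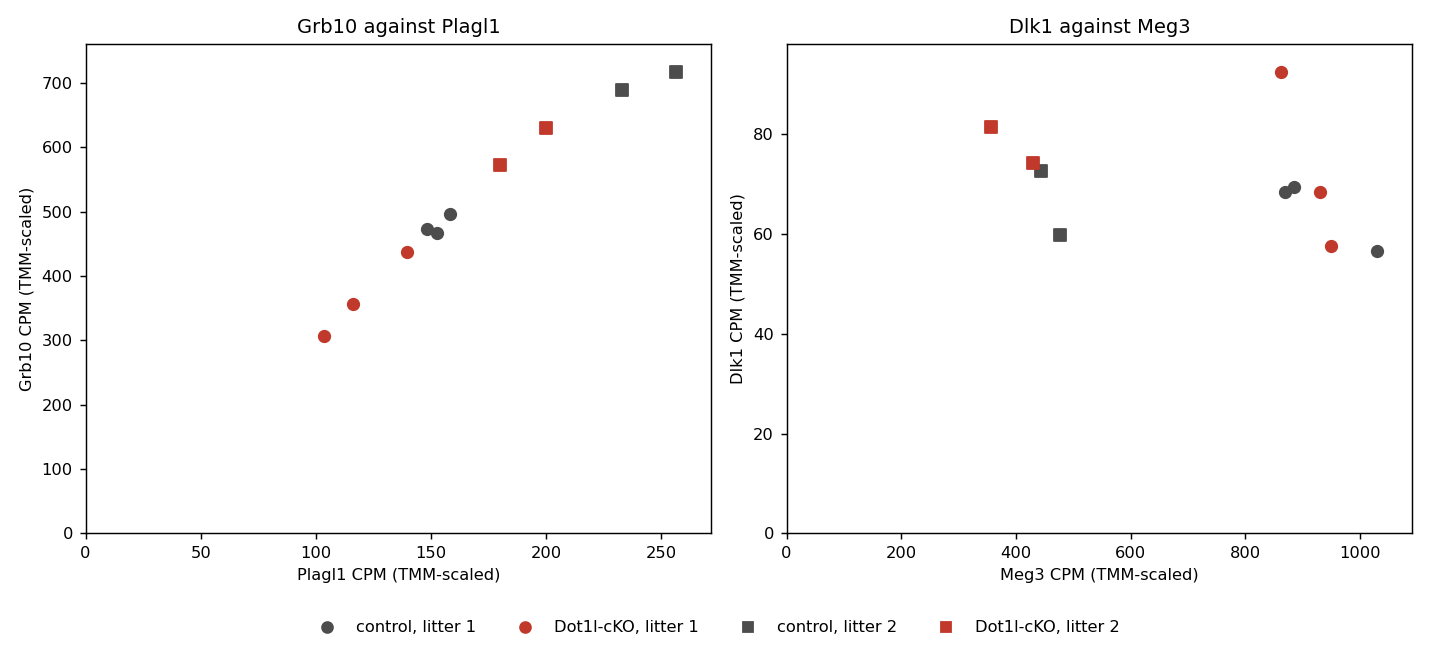
Grb10 against Plagl1 (left) and Dlk1 against Meg3 (right), in CPM (TMM-scaled), with 1 point per embryo and all axes from 0. Circles are litter 1 and squares litter 2, grey control and red Dot1l-cKO. Grb10 and Plagl1 rise together over all 10 embryos, while Dlk1 tends to be lower where Meg3 is higher within each litter.

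None of the other pairs passed the adjustment. Grb10 and Mest had r = 0.853 (rho = 0.685, exact permutation p = 0.0238 for r, adjusted p = 0.463), and this was 0.307 in litter 2 and 0.111 without Mut_181-2 and Mut_181-7. H19 and Mest had r = 0.832 (rho = 0.770, exact permutation p = 0.00851, adjusted p = 0.463) and kept 0.972 without the 2 embryos farthest in H19. H19 and its neighbour Igf2 had r = 0.747 (rho = 0.782, exact permutation p = 0.0154, adjusted p = 0.441), with 0.716 in litter 1 and 0.483 without the 2 farthest embryos.

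Meg3 and its neighbour Dlk1 ran in opposite directions, with r = -0.751 (rho = -0.758, exact permutation p = 0.0124, adjusted p = 0.557), -0.788 in litter 1, -0.884 in litter 2 and -0.785 without the 2 embryos farthest in Meg3. Meg3 and Ndn had r = -0.817 (rho = -0.661, exact permutation p = 0.0135, adjusted p = 0.558), and -0.658 without the 2 embryos farthest in Meg3. Dlk1 and Ndn had r = 0.772 (rho = 0.733, exact permutation p = 0.0172, adjusted p = 0.338), and 0.791 without the 2 embryos farthest in Dlk1. Igf2 and Igf2r, the ligand and its receptor, had r = 0.245 (rho = 0.455, exact permutation p = 0.583, adjusted p = 0.874), and 0.523 without the 2 embryos farthest in Igf2.

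**Figure D5:**
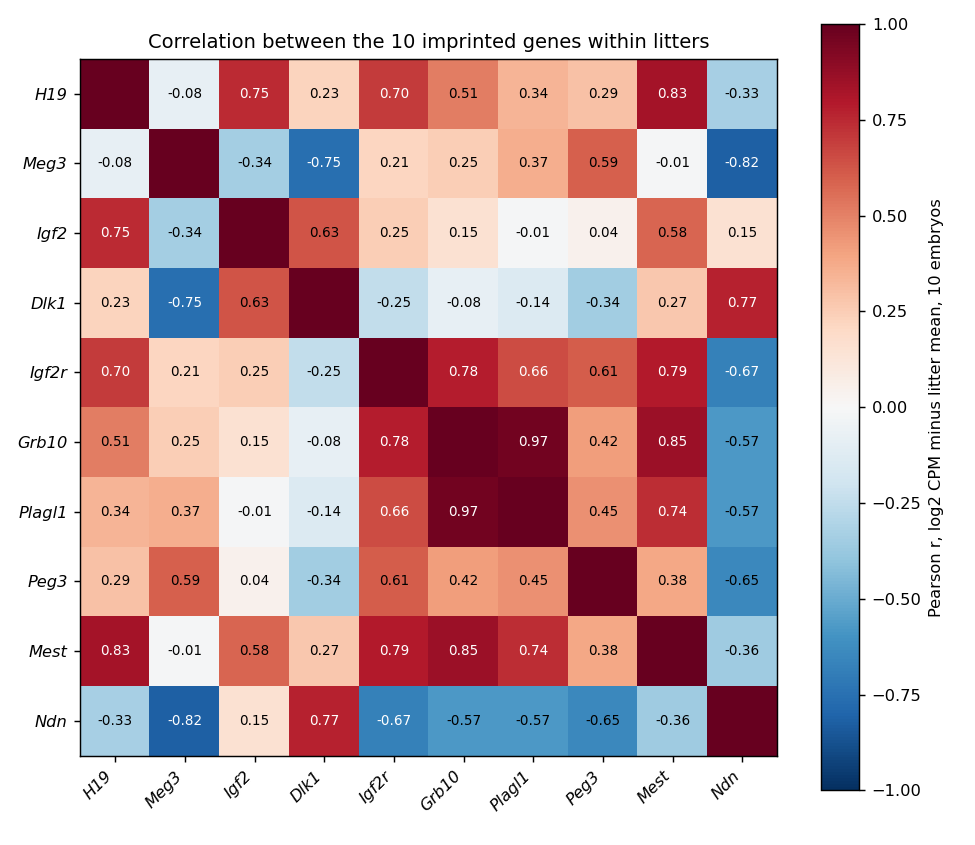
Pearson r of log2 CPM minus the litter mean over 10 embryos, for each pair of the 10 genes, from -1 (blue) to 1 (red). Grb10 and Plagl1 show the highest value (0.97), Ndn is negative with all but Igf2 and Dlk1, and Meg3 is most negative with Ndn (-0.82) and Dlk1 (-0.75).

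The same was done for the summed level of 11 lists of cell type markers, 110 relations in all, of which none passed after Benjamini-Hochberg adjustment over the 110. Mest with neuronal markers came nearest, at r = -0.955 (rho = -0.939, exact permutation p = 0.00116, adjusted p = 0.0668), with -0.981 in litter 1 and -0.821 without the 2 embryos farthest in Mest. Igf2r with endothelial markers had r = 0.918 (rho = 0.927, exact permutation p = 0.00122, adjusted p = 0.0668), with 0.957 in litter 1, 0.939 in litter 2 and 0.854 without the 2 embryos farthest in Igf2r. H19 with mesenchymal markers had r = 0.842 (rho = 0.867, exact permutation p = 0.00365, adjusted p = 0.134), with 0.881 in litter 1 and 0.738 without the 2 embryos farthest in H19. Grb10 and Plagl1 had r = -0.834 and -0.749 with neuronal markers and 0.782 and 0.684 with neural progenitor markers (adjusted p = 0.211, 0.211, 0.238 and 0.258, exact permutation test). The progenitor relations were 0.902 and 0.901 in litter 1 and turned negative in litter 2, at -0.35 and -0.22. Without the 2 farthest embryos Grb10 had -0.30 with neuronal and -0.13 with progenitor markers, so that its relations rested on those embryos, while Plagl1 without its 2 farthest had -0.48 and 0.719. Mesenchymal markers summed to 1235 to 2371 CPM over the embryos.

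The genes whose pattern within litters was most like that of Igf2, among tested genes with a mean log2 CPM of at least 1, were AI464131 (r = 0.945), Scarf2 (0.940), Cand2 (0.934), Zfp865 (0.933) and Dnajb12 (0.932). For Meg3 they were Zfp945 (0.958), Polk (0.930), Ptprd (0.925), Ptpn9 (0.919) and Cdk13 (0.918), and for Peg3 Hipk3 (0.936), Dync2h1 (0.923), Lpin1 (0.922), Pdzd8 (0.911) and Mef2a (0.908). These are the highest of 19772 values each over 10 embryos, and none passed the adjustment.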

How the data were processed

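RNA of the lumbar spinal cord of 10 single E12.5 embryos was sequenced, and the authors trimmed the reads, mapped them to mm10 with STAR and counted them per gene with featureCounts on a GENCODE annotation, from which the raw counts were deposited. The authors' own test used DESeq2 with the litter as a term. Gene names, coordinates and exon lengths were taken from a later GENCODE annotation of the same build (GRCm38), which matched 54079 of 54146 rows.

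The counts as deposited were tested with edgeR 4.0.16 (TMM, default filter on low counts, quasi-likelihood F test, Benjamini-Hochberg, threshold 0.05), with genotype and litter as terms over all embryos, within each litter, and with their interaction. SE is the log2 fold change divided by the square root of F. Log2 CPM for correlations used a prior count of 2. Correlations were tested by exact permutation within litters, two-sided, for which the smallest possible p is 5.8e-05, and a pair was given the larger of its 2 adjusted values. DESeq2 1.42.0, other normalizations and filters, other terms and leaving out each embryo were the alternatives. The edgeR and correlation steps were tested on simulated data. Depth was 40949585 to 68928443 counts, and pairs of embryos within a group differed beyond sampling noise. Each embryo is a separate animal. The genes and lists were chosen with earlier results of these data known. From 59 other imprinted and 22 IGF genes, those named passed the adjusted threshold (at most 6 of the largest in a direction), lie near 1 of the 10 genes, or, like Igf1, Igf1r and Cdkn1c in the genotype comparison, were chosen after their values were seen.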

Additional observations from a re-analysis of the deposited data

Results flagged for a closer look

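H19 in the control embryo Ctr_190-7 was 770.6 CPM, apart from the other 4 controls, which lay at 893 to 937 CPM. Its gap to the nearest of them was 0.735 of the range of the group, above the limit of 0.71 for 5 samples. Of 20 sets of 5 embryos examined (10 genes in 2 groups) it was the 1 that passed, and chance flags about 1 in 20. Each set mixed embryos of both litters, which neither the limit nor this rate takes into account. Ctr_190-7 also had the smallest library, with 40949585 counts, and 30457 of these were H19.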

How the results depend on the processing

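The fold changes and calls of the 10 genes and the genotype counts over all genes were recomputed with other normalizations, filters, tests and terms and without each embryo. The median r over pairs was recomputed under fewer settings. After the data were seen, the same alternatives were run for the other genes named as passing and for the counts of the other lists. Without the filter on low counts, edgeR called 6 of the 10 genes for genotype in place of 2, 5 in place of 3 for litter, 4 in place of 0 in litter 1, 4 in place of 2 in litter 2 and 2 in place of 0 for the difference between litters, where 6.25%, 19.9%, 3.78%, 5.51% and 1.24% of all genes passed. The cause was not tested. In the fit without the replicate block, which here is the litter, 0 were called for genotype, and 0 when the level of Xist entered the model. Xist nearly marks the Dot1l-cKO embryos of litter 2, so that this fit cannot separate sex from genotype there. The embryo numbers pair no embryos. DESeq2 called 3 in litter 1. Without 1 embryo, the calls were 0 to 2 for genotype, 3 to 4 for litter, 0 to 4 in litter 1 (4 without Mut_181-3, where 2.07% of all genes passed, and 1 without Ctr_181-5), 1 to 4 in litter 2 (1 without Mut_190-6, 3 without Ctr_190-7 and 4 without Mut_190-4) and 0 for the difference. The litter 2 fits leave 1 embryo in a group, which is assumed to vary like the 2 embryos of the other.

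The median r over pairs was 0.408 with group means removed, 0.307 in litter 1 and 0.141 in litter 2 (25 pairs positive and 20 negative), 0.212 for rho, and 0.157 to 0.308 without 1 embryo. Over all genes, genotype calls numbered 591, but 53 to 1377 without 1 embryo, 49 with Xist in the model, 0 when litter was dropped in edgeR (1867 at an unadjusted p under 0.05), 2201 without the filter and 1492 by DESeq2. Of the 54 other imprinted genes, 8 were called for genotype, but 0 when litter was dropped and 1 with Xist in the model. For the IGF genes both gave 0 in place of 2. For litter, 31 of the imprinted genes were called, but 18 with Xist in the model (4 higher and 14 lower) and 18 among controls alone (3 and 15), where 23.4% and 24.5% of all genes passed. The other genes named as passing for genotype or litter kept their direction in every alternative, but not always their call. For litter, Mirg and Slc38a4 did not pass with Xist in the model (adjusted p = 0.233 and 0.181, edgeR) or among controls alone (0.125 and 0.0709). Cdkn1c did not pass with Xist (0.121), nor did Ascl2 (0.361), which also missed without the filter (0.0647) and by DESeq2 (0.0645).

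None of the values that changed sign had passed the test. For litter 2 against litter 1, H19 was -0.068 and Igf2 -0.074 when the level of Xist entered the model, and H19 was -0.072, Igf2 -0.11 and Igf2r -0.0029 among controls alone. For genotype in litter 2, Igf2r was 0.0051 with DESeq2 size factors, 0.016 by library size, 0.023 without the filter, 0.013 with at least 10 counts in every embryo and 0.0065 by DESeq2. The difference between litters for Plagl1 was 0.0067 by library size. Without 1 embryo the log2 fold changes ranged, for genotype, from -0.095 to 0.012 for H19. For litter they ranged from -0.0099 to 0.14 for H19, -0.041 to 0.42 for Igf2 and -0.006 to 0.16 for Dlk1. In litter 1 they ranged from -0.068 to 0.060 for Meg3, -0.43 to 0.56 for Igf2 and -0.041 to 0.32 for Dlk1, and in litter 2 from -0.10 to 0.13 for Igf2r and -0.069 to 0.087 for Mest. For the difference between litters they ranged from -0.079 to 0.27 for Dlk1, -0.10 to 0.12 for Plagl1 and -0.13 to 0.17 for Ndn.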
